A study of Mus musculus with 12 samples.

Results

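*Apoe* and the genes beside it on mouse chromosome 7 were followed through 12 RNA-seq libraries of cells sorted as bone marrow endothelial cells. The 10 members are *Apoe*, *Apoc1*, *Apoc4*, *Apoc2*, *Tomm40*, *Clptm1*, *Relb*, *Bcam*, *Ceacam19* and *Nectin2*. They were chosen by hand around *Apoe*, with earlier results of these data known and without a threshold on any value. They were matched from symbol to Ensembl gene identifier, and all 10 were found among the 55421 genes of the deposited count table. The question put to them was which change in the *Apoe* knockout columns only. It rests on the raw counts of these same 12 libraries by group, so the values of the *Apoe*-/- libraries given here describe that contrast and support nothing beyond it. Of the 10 members, 9 had enough counts to enter the fit over all 15999 genes tested, and *Apoc2* did not.

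Each library came from 1 mouse, with 3 mice per group, all 20 weeks old. Controls were naive C57BL/6J mice. Mice with hypertension were C57BL/6J mice infused for 8 weeks with angiotensin II, which constricts vessels. Mice with myocardial infarction (MI) were C57BL/6J mice taken 2 days after the infarct by the labels and on day 4 by the study's text. *Apoe*-/- mice carried the Apoe(tm1Unc) allele, were atherosclerotic and had been fed a western diet for 10 weeks. No library comes from *Apoe*-/- mice without that diet or from wild-type mice fed it, so genotype and diet cannot be told apart. The cells had been sorted as CD31-high, Sca-1+ cells lacking CD45, TER-119 and CD41. Libraries of polyadenylated RNA held between 17007088 and 25136936 counts. The 24 endothelial marker genes were all detected and together held 213.5 to 405.9 CPM (counts scaled for depth), against 34796 to 90871 CPM for 14 neutrophil genes and 1542 to 2579 CPM for 14 macrophage genes. Sums were 12089 to 44621 CPM for 15 erythroid genes and 5599 to 10189 CPM for 11 monocyte genes. They were 196.8 to 1215 CPM for 10 B cell genes and 117.2 to 357.7 CPM for 10 mesenchymal genes. Levels given here are therefore those of all RNA in the sort and cannot be assigned to endothelial cells.

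ApoE is the protein on remnant lipoproteins and HDL that is recognised by lipoprotein receptors, through which cholesterol-rich particles are cleared from the blood. The liver makes most of it, and macrophages make it abundantly, where it takes up cholesterol released from the cell. In mice, *Apoe* sits in one cluster with *Apoc1*, *Apoc4* and *Apoc2*, small apolipoproteins of VLDL and HDL. ApoC-II is the cofactor that lipoprotein lipase requires. The flanking genes have other roles. *Tomm40* encodes the pore through which proteins enter mitochondria, and *Clptm1* encodes a membrane protein that retains GABA-A receptors inside the cell. *Relb* is a transcription factor of the noncanonical NF-kB pathway. *Nectin2*, *Bcam* and *Ceacam19* encode immunoglobulin-superfamily surface proteins, of which nectin-2 joins cells at adherens junctions and BCAM binds laminin.

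The members lie between bases 19606217 and 19887965 of chromosome 7 in build GRCm38 (281.7 kb), all 10 on the minus strand. In the direction of transcription of *Apoe*, *Apoc1* starts 6.53 kb downstream of the *Apoe* start, *Apoc4* 17.7 kb and *Apoc2* 21.2 kb downstream. *Clptm1* and *Relb* follow at 34.2 and 69.8 kb. Upstream, *Tomm40* starts 16.2 kb away, *Nectin2* 51.3 kb, *Bcam* 71.8 kb and *Ceacam19* 188.8 kb. The same interval holds 12 other annotated genes with a row in the table, so position alone does not define the list, and *Ceacam19*, its farthest member, is not adjacent to the others.

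**Figure D1:**
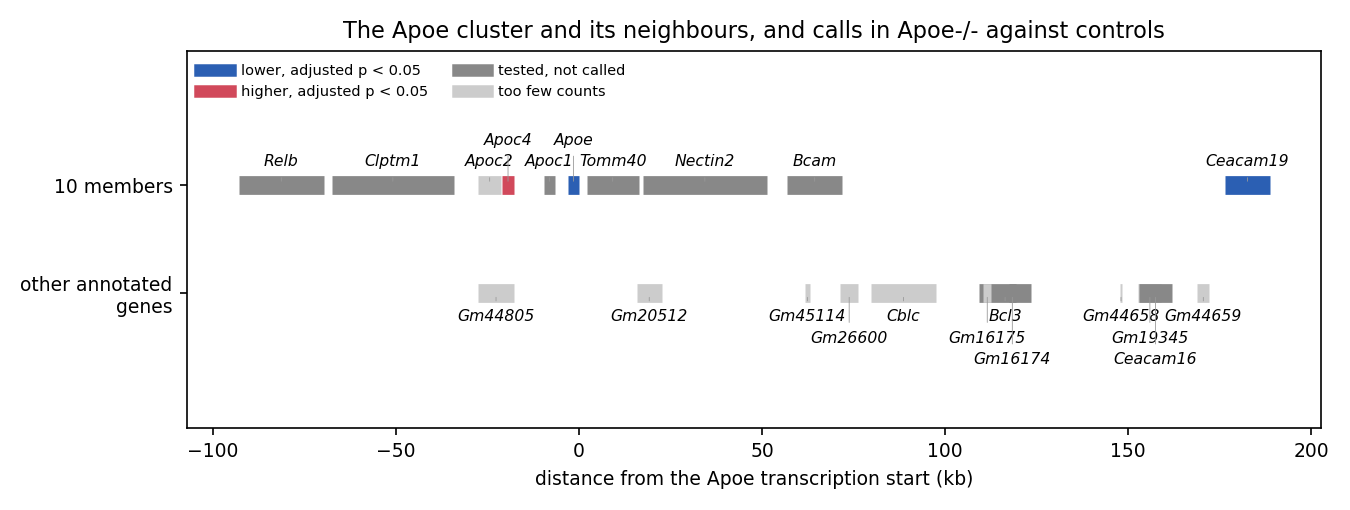
The 10 members and the 12 other annotated genes of the interval, drawn to scale as distance from the Apoe transcription start in kb (positive values are upstream of Apoe). Blue and red mark genes lower and higher in Apoe-/- libraries at an adjusted p under 0.05 (0.144% of all genes tested), dark grey genes that were not called and light grey genes with too few counts; the 3 coloured members are Apoe, Apoc4 and Ceacam19, and genes between Bcam and Ceacam19 were not called by the edgeR quasi-likelihood test drawn here.

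The sequences just upstream of *Apoe*, *Apoc4* and *Ceacam19* are shown because these are the members whose *Apoe*-/- libraries lay above or below all 9 others, as did 2.25% of all genes tested. Each is the 250 bases before a RefSeq start on the minus strand of GRCm38.p6, at chr7:19699189-19699438 for *Apoe*, chr7:19681461-19681710 for *Apoc4* and chr7:19887966-19888215 for *Ceacam19*. Capitals mark matches to a TATA box (TATAAA), a GC box core (GGGCGG) or a CCAAT box, each searched for on both strands, and no matches overlapped in the printed windows.
Apoe: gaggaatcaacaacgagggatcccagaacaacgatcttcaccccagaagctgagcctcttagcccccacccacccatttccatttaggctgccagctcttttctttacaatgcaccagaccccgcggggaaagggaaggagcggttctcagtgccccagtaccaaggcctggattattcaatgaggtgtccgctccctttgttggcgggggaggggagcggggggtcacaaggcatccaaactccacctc
Apoc4: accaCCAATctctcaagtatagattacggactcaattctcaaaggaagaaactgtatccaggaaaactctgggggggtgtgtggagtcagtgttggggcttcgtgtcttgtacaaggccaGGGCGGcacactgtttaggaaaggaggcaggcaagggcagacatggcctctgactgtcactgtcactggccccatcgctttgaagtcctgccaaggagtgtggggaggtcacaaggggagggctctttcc
Ceacam19: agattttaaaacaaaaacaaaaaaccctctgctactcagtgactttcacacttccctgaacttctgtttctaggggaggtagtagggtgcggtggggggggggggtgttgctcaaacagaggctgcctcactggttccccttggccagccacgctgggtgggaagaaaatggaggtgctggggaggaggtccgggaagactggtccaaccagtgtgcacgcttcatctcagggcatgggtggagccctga
*Apoc4* holds 1 GGGCGG and 1 CCAAT, and neither of the other printed windows holds any of the 3 motifs. RefSeq gives *Apoe* 3 starts. The window printed is that of the outermost, which is also the gene's start in GENCODE. The window of the start 567 bases downstream, at chr7:19698622-19698871, holds 2 TATAAA matches that overlap on opposite strands, and that of the start 790 bases downstream holds none of the motifs. Over all 32841 promoter windows of this length in RefSeq, TATAAA stood in 12.4%, GGGCGG in 32.7% and CCAAT in 33.9%. GC content was 57.2% for *Apoe*, 54% for *Apoc4* and 55.6% for *Ceacam19*, and the median of all windows was 52.4%. No peak, methylation or factor binding was measured here, so these are descriptions of sequence. Of the other members, *Apoc2*, *Tomm40*, *Clptm1*, *Nectin2* and *Bcam* also matched an entry, and *Apoc1* and *Relb* were without one.

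Levels were compared between genes per kilobase of exon. In controls, *Apoe* stood far above its neighbours at 365 ± 46.0 CPM per kb (SD, n = 3), where CPM is here taken after TMM scaling of the library size. *Tomm40* followed at 30.1 ± 2.43 and *Clptm1* at 29.0 ± 4.75 CPM per kb (SD, n = 3), a pair that did not differ beyond its spread. Next came *Relb* at 3.54 ± 0.776 and *Nectin2* at 1.78 ± 0.403 CPM per kb (SD, n = 3). *Apoc1* at 0.716 ± 0.179, *Bcam* at 0.501 ± 0.406 and *Ceacam19* at 0.383 ± 0.233 CPM per kb (SD, n = 3) overlapped one another. *Apoc4* stood at 0.0147 ± 0.0255 CPM per kb (SD, n = 3), with a count in only 1 control library, and *Apoc2* at 0.

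*Apoe*, the targeted gene, was measured before its neighbours. Its counts were 13037, 13247 and 23049 in the control libraries (replicates 2, 3 and 4 in this order, as throughout) and 220, 124 and 290 in the *Apoe*-/- libraries. In CPM these were 731, 717 and 894 in controls, 905, 713 and 450.5 in hypertension, 1503, 744 and 550.4 after MI, and 9.78, 7.28 and 14.8 in *Apoe*-/- mice. All 3 *Apoe*-/- libraries were thus far below each of the 9 others, as their labels say, while the other groups overlapped. The *Apoe*-/- mean of 10.6 ± 3.81 CPM (SD, n = 3) was 1.36% of the control mean of 781 ± 98.4 (SD, n = 3). The fitted log2 difference was -6.20 ± 0.45 (SE) against controls, -6.02 ± 0.45 against hypertension and -6.45 ± 0.46 against MI. The counts are per gene, so they do not show which exons the remaining 634 counts of the *Apoe*-/- libraries fell on.

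Among mice with an intact gene, the 3 groups overlapped for *Apoe*. Hypertension and controls differed by -0.18 ± 0.36 on the log2 scale (edgeR quasi-likelihood test, Benjamini-Hochberg adjusted p = 0.968), and MI and controls by 0.26 ± 0.36 (adjusted p = 1.00 in the same test). The MI difference had the opposite sign, -0.27, without MI replicate 2, whose 1503 CPM was the highest *Apoe* level of all. The hypertension difference was 0.06 without hypertension replicate 4. Among the 5 genes whose log2 CPM went most closely with *Apoe* over these 9 libraries, of 13389 genes compared, were *Sqstm1* (Pearson's r = 0.984), *Vcam1* (0.983) and *Atmin* (0.981). *Vcam1* was also 1 of the 14 macrophage markers, and the summed macrophage level had r = -0.01 with *Apoe* (n = 9). The largest part of that sum was *Slc40a1*, with a median of 792 CPM over all libraries, beside 267 CPM for *Cd68* and 203 CPM for *Vcam1*. The r of the sum therefore need not hold for the other markers of the list. For the other marker sums r was 0.746 for erythroid, 0.678 for neutrophil, 0.663 for mesenchymal, 0.463 for endothelial, 0.360 for monocyte and -0.815 for B cell genes. These correlations are descriptions, and the libraries share their groups and their sort.

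Beside *Apoe*, the macrophage marker sum was higher in the *Apoe*-/- libraries, at 1985 to 2579 CPM, than in controls, at 1542 to 1917 CPM. In hypertension, at 1883 to 2455 CPM, it overlapped with the *Apoe*-/- libraries, and after MI it was 1551 to 1894 CPM. None of the 14 genes was at 0 in all libraries, and *Slc40a1* weighed most in the sum. The part of this sum in the differences of the other members was not tested beyond the covariate fit given with the alternatives. In bulk RNA, fewer cells of a type and less RNA per cell cannot be told apart.

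*Ceacam19*, a carcinoembryonic-antigen family member of little-known function, had no count in any *Apoe*-/- library. Its counts were 7, 34 and 42 in controls, 35, 38 and 30 in hypertension, 10, 17 and 20 after MI, and 0, 0 and 0 in *Apoe*-/- mice. Every *Apoe*-/- library was therefore below each of the 9 others, of which control replicate 2 and MI replicate 2 were the lowest. In CPM, the other groups averaged 1.29 ± 0.782, 1.59 ± 0.081 and 0.870 ± 0.304 (SD, n = 3 each, in the same order). Against a floor of 3 counts per library, which covers counting error only and amounts to 0.133 to 0.176 CPM in these libraries, *Ceacam19* was at least 8.35-fold lower than in controls. It was at least 10.3-fold lower than in hypertension and at least 5.64-fold lower than after MI. A gene absent from 1 group enters the fit only through the other groups, so it had to differ, and at its low level the depth sets the bound. Hypertension and MI each overlapped with controls for *Ceacam19*, with log2 differences of 0.29 ± 0.48 and -0.58 ± 0.51 (SE). The sign in hypertension turned without control replicate 2 (-0.13).

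*Apoc4* went the other way. Its counts were 2, 0 and 0 in controls, 2, 1 and 1 in hypertension, 3, 4 and 5 after MI, and 24, 29 and 11 in *Apoe*-/- mice. The *Apoe*-/- libraries, at 1.07, 1.70 and 0.560 CPM, were each above all 9 others, of which the highest, MI replicate 4, stood at 0.290 CPM. Summed over the libraries of a group and scaled by library size, the *Apoe*-/- counts were 33.6 times those of controls with a 95% counting interval of 8.93 to 283. The ratio was 17.5 (6.53 to 66.3) against hypertension and 4.89 (2.62 to 9.96) against MI. These exact intervals cover counting error only, and the control count of 2 leaves the size of the first ratio open over a wide range. *Apoc4* passed the filter on low counts through the *Apoe*-/- libraries, so it had to differ. The level remained low even there, at 0.438 ± 0.226 CPM per kb (SD, n = 3), below the 4.96 ± 1.78 CPM per kb left for *Apoe* in the same libraries.

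*Apoc2* was practically absent, with 1 count in hypertension replicate 3 and 0 in the other 11 libraries. The annotation bears on this value. Of its 813 exon bases, 646 (79.5%) are shared with *Gm44805*, an annotated gene that starts within *Apoc4* and ends with the last exons of *Apoc2*. STAR does not count a read that overlaps the exons of more than 1 gene, so only reads on the other 167 bases could be counted for *Apoc2*, and *Gm44805*, all of whose 765 exon bases are shared, had 0 counts in every library. A count of 0 here therefore does not show that the transcript was absent, and no fold is given. *Apoc4* shares 119 of its 2537 exon bases (4.69%) in this way.

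**Figure D2:**
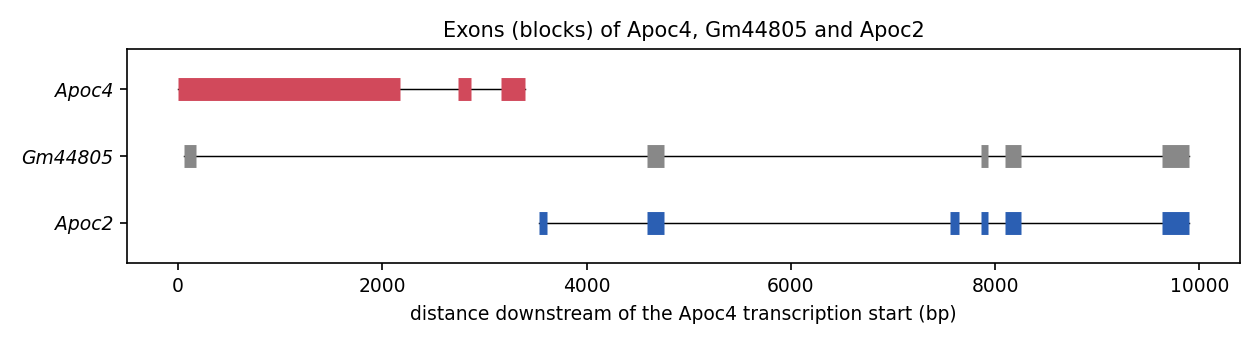
Exons of Apoc4, Gm44805 and Apoc2 as blocks, drawn to scale in bp downstream of the Apoc4 transcription start. Exons of Gm44805 coincide with one exon stretch of Apoc4 and with most exons of Apoc2, which leaves 167 of 813 Apoc2 exon bases for counting.

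*Apoc1*, the cluster gene nearest to *Apoe*, rested on few counts and on single libraries. It had 10, 12 and 10 counts in controls, 6, 11 and 4 in hypertension, 31, 2 and 3 after MI, and 5, 59 and 12 in *Apoe*-/- mice. *Apoe*-/- replicate 3, at 3.47 CPM, stood far above the others of its group, at 0.222 and 0.611 CPM, and MI replicate 2, at 1.71 CPM, far above 0.106 and 0.174 CPM. All groups overlapped. The log2 difference between *Apoe*-/- mice and controls was 1.40 ± 0.96 (SE), and without *Apoe*-/- replicate 3 it was -0.35. After MI it was 0.33 ± 1.00, and without MI replicate 2 it was -1.88. *Apoe*-/- replicate 3 also had the highest erythroid marker sum of the 12 libraries, 44621 CPM over 15 genes against 12089 to 31146 CPM in the others, and the part of such cells in its *Apoc1* level was not tested. Over the 9 libraries with intact *Apoe*, the genes closest to *Apoc1* among 13390 compared were *Glis3* (Pearson's r = 0.974), *Gna13* (0.966), *Ipo7* (0.955), *Ptar1* (0.952) and *Aph1a* (0.951), as a description at these low counts.

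**Figure D3:**
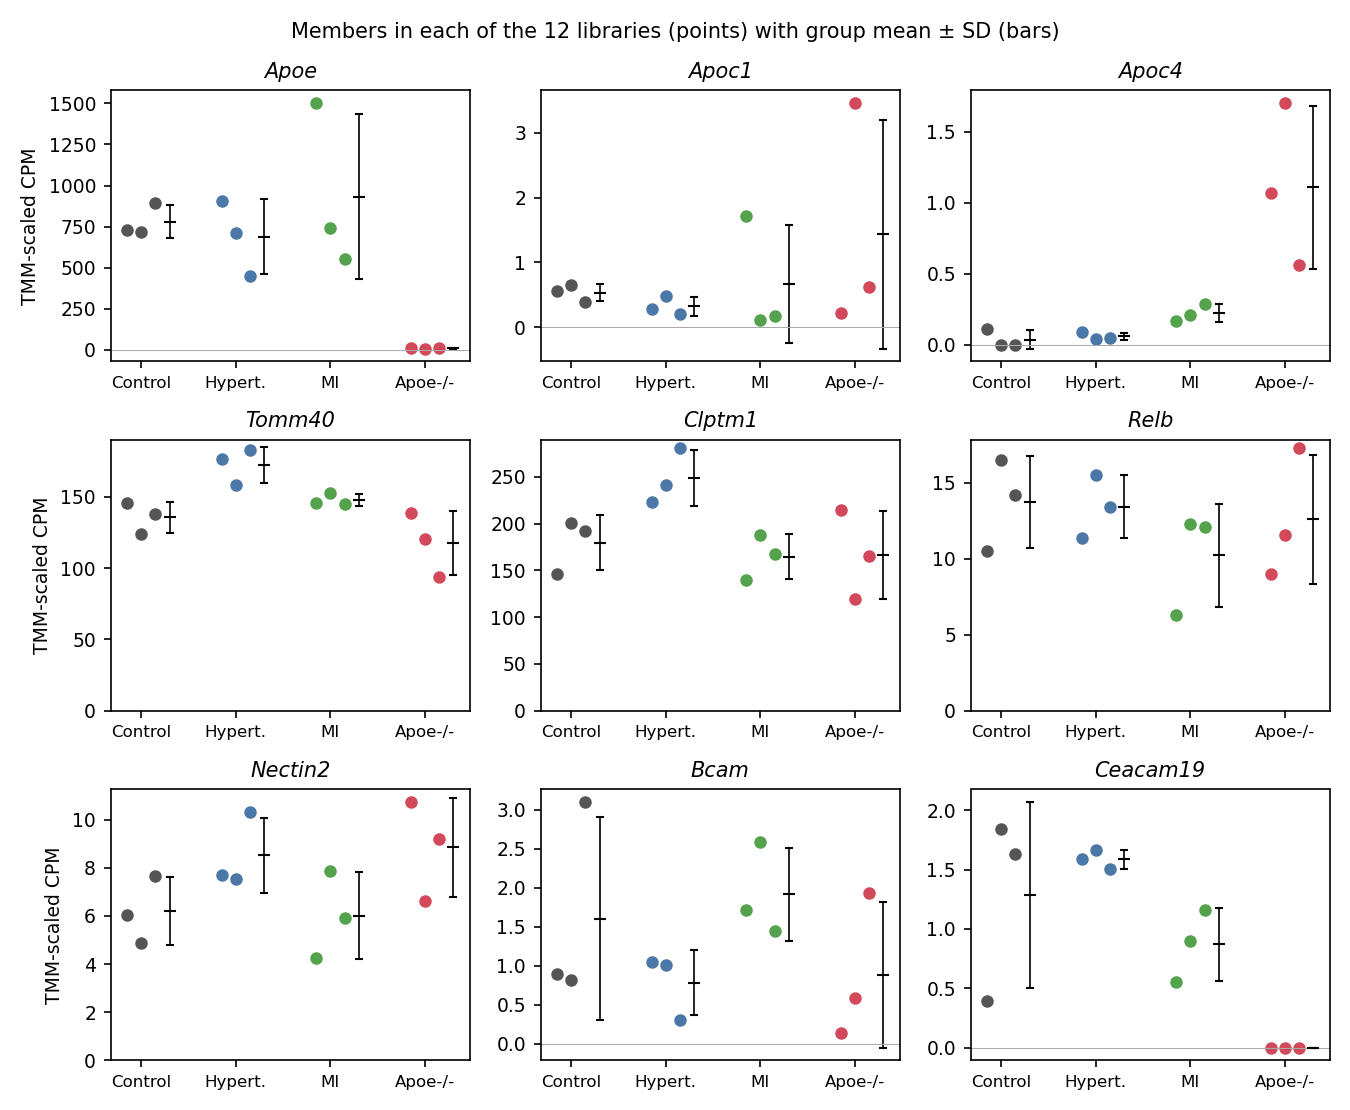
TMM-scaled CPM of the 9 tested members in each library (points, coloured by group) with the group mean and SD (bars), n = 3 mice per group, linear axes. Apoe-/- libraries lie below all others for Apoe (7.28 to 14.8 CPM) and Ceacam19 (0) and above all others for Apoc4 (0.560 to 1.70 CPM), and overlap with the other libraries for the remaining 6 genes.

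*Tomm40*, whose start lies 16.2 kb upstream of *Apoe*, kept a substantial level in the knockout. In CPM it was 146, 124 and 138 in controls and 138, 120.2 and 94.0 in *Apoe*-/- mice, which overlapped (log2 difference -0.21 ± 0.15, SE). In hypertension it was 177, 158 and 183 CPM, above every control library, and after MI 146, 152 and 145 CPM. The hypertension difference was 0.35 ± 0.15 on the log2 scale and higher in 3 of 3 libraries, but did not pass the correction over all genes (edgeR quasi-likelihood test, adjusted p = 0.951). The genes closest to *Tomm40* over the 9 libraries were *Cluh* (r = 0.971), *Ube2l6* (0.951), *Glo1* (0.944), *Alad* (0.938) and *Glrx5* (0.937), given as a description.

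*Clptm1* had the same arrangement in hypertension. Its levels were 146, 201 and 192 CPM in controls, 224, 241 and 281 in hypertension, 139, 188 and 167 after MI, and 214, 119.8 and 166 in *Apoe*-/- mice. Only the hypertension libraries were all above the controls, by 0.47 ± 0.21 on the log2 scale, and this also failed the correction (edgeR quasi-likelihood test, adjusted p = 0.951). Of all genes tested, 16.8% had hypertension and control libraries that did not overlap. In the same hypertension libraries, summed neutrophil markers were lower than in every control (37826 to 54272 against 59642 to 78510 CPM over 14 genes), and so were 11 monocyte markers (5915 to 7580 against 7788 to 10189 CPM); their part in these values was not tested. In *Apoe*-/- mice *Clptm1* differed from controls by -0.11 ± 0.21 (SE), and by 0.08 without *Apoe*-/- replicate 3.

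*Relb*, *Nectin2* and *Bcam* overlapped between *Apoe*-/- mice and controls. *Relb* stood at 10.5, 16.5 and 14.2 CPM in controls and at 8.98, 11.6 and 17.3 CPM in *Apoe*-/- mice, a log2 difference of -0.13 ± 0.29 (SE) that turned to 0.02 without control replicate 3 and 0.08 without *Apoe*-/- replicate 2. *Nectin2* stood at 6.05, 4.87 and 7.68 CPM in controls and at 10.7, 6.64 and 9.22 CPM in *Apoe*-/- mice (0.51 ± 0.27), with a similar difference in hypertension (0.45 ± 0.27). *Bcam* varied widely within groups, at 0.897, 0.812 and 3.10 CPM in controls and 0.133, 0.587 and 1.94 CPM in *Apoe*-/- mice. Its log2 difference of -0.89 ± 0.74 (SE) rested on control replicate 4 and was 0.05 without it. Over all 12 libraries *Relb* ranged from 6.29 to 17.3 CPM, *Nectin2* from 4.25 to 10.7 CPM and *Bcam* from 0.133 to 3.10 CPM. In hypertension *Bcam* differed by -1.05 ± 0.74 and *Relb* by -0.04 ± 0.29, and after MI *Relb* differed by -0.43 ± 0.29, *Bcam* by 0.23 ± 0.71 and *Nectin2* by -0.05 ± 0.28, none past the threshold. *Tomm40* and *Nectin2* exons face those of *Gm20512* on the opposite strand over 258 and 135 bases, and *Bcam* exons those of *Gm26600* over 52 bases, and which of STAR's stranded or unstranded counts was taken is not given in the sources used here. Neither antisense gene had more than 2 counts in a library.

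In the fit over all genes, 3 of the 9 tested members were called at an adjusted p under 0.05 in *Apoe*-/- mice against controls (*Apoe* and *Ceacam19* lower, *Apoc4* higher). Of all 15999 genes, 0.144% were called, 0.106% higher and 0.0375% lower. Since the members were proposed for this contrast, nothing is read from that share. Called against controls, hypertension and MI in one direction, the rule taken here for a change in *Apoe*-/- mice only, were 2 members, *Apoe* and *Ceacam19*. Of all genes, 0.0563% met it. Against hypertension 0.0625% of genes were called, 0.0250% as lower, and against MI 0.269%, 0.0688% as lower, and these members were 2 of the lower ones in each. *Apoc4* was not called against hypertension (edgeR quasi-likelihood test, adjusted p = 0.0827) or against MI (adjusted p = 0.151), so by this test its change was not shown to be particular to the knockout. By edgeR's likelihood-ratio test it was called against both (adjusted p = 2.01e-05 and 0.0175), and it then met the same rule, as it did without a low-count filter. *Apoc4* had entered the filtered fits through the *Apoe*-/- libraries, so these calls describe the contrast and support nothing beyond it. Without a test, 3 of the 9 members had all 3 *Apoe*-/- libraries on one side of the 9 others, 1 above and 2 below. Of all genes, 2.25% did, 1.48% above and 0.775% below. The calls of *Ceacam19* and *Apoc4* against controls each depended on the libraries kept. That of *Ceacam19* was lost without control replicate 3 (adjusted p = 0.113), control replicate 4 (0.0814), *Apoe*-/- replicate 3 (0.0671) or *Apoe*-/- replicate 4 (0.0584), by edgeR's quasi-likelihood test. That of *Apoc4* was lost without control replicate 2 (adjusted p = 0.0650), 3 (0.227) or 4 (0.235), or without *Apoe*-/- replicate 3 (0.108). The call of *Ceacam19* against hypertension was also lost without *Apoe*-/- replicate 3 (0.0914) or 4 (0.0736) or any 1 hypertension library (adjusted p from 0.0621 to 0.0697). Against MI it was lost without *Apoe*-/- replicate 3 (0.0627) or 4 (0.0863) or any 1 MI library (adjusted p from 0.0684 to 0.102). Leaving out any 1 library kept the call of *Apoe* in each comparison.

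In hypertension and after MI, no member was called, as was no other gene by edgeR's quasi-likelihood test (0.00% of 15999 in each), while 594 genes (3.71%) in hypertension and 448 (2.80%) after MI had an unadjusted p under 0.05. The likelihood-ratio test and DESeq2 each called 0 genes in hypertension and 1 after MI, no member among them. *Apoc4* after MI had 12 counts against 2 in controls (edgeR quasi-likelihood test, adjusted p = 1.00), and its MI libraries, at 0.166 to 0.290 CPM, were each above the control libraries. Of all genes, 8.86% had MI and control libraries that did not overlap. The 3 comparisons share the same control libraries, so their values for a gene are not independent.

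**Figure D4:**
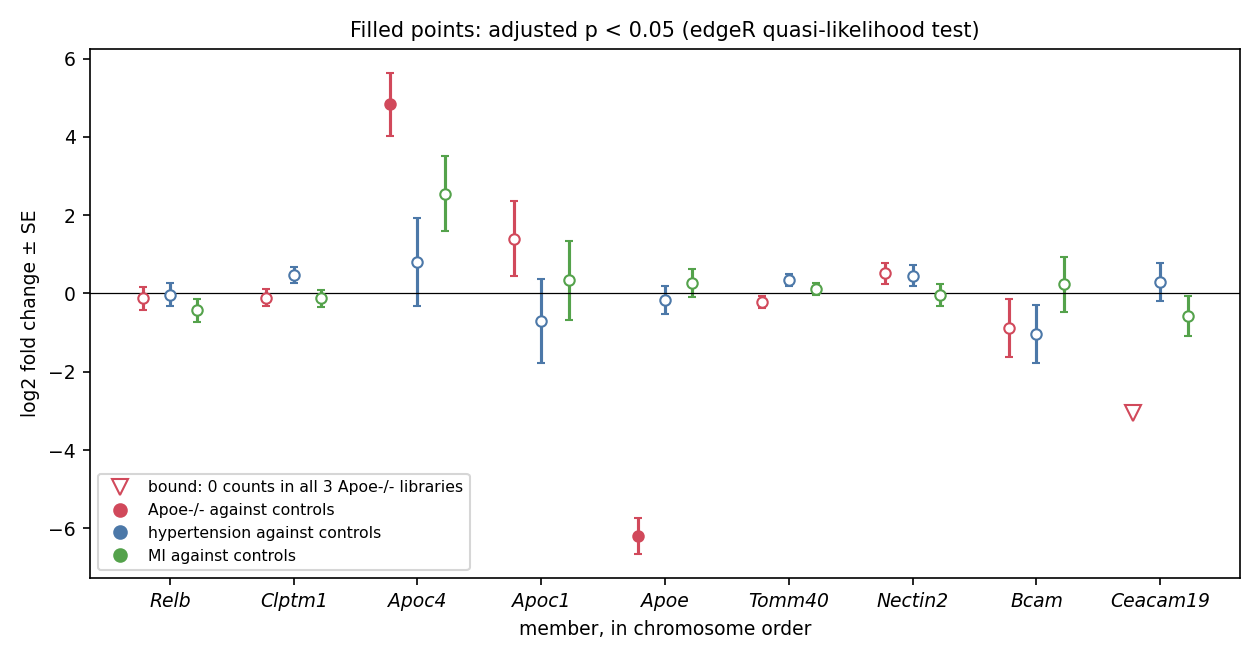
Log2 fold change ± SE of the 9 tested members in Apoe-/- mice (red), hypertension (blue) and MI (green) against the shared controls, n = 3 mice per group, genes in chromosome order. Filled points passed an adjusted p of 0.05 (edgeR quasi-likelihood test). The open triangle is the bound for Ceacam19, which had 0 counts in all 3 Apoe-/- libraries. Apoc4, drawn at its fitted value of 4.83, rests on 2 control counts. The other members of both flanks have open points, among them Tomm40 (0.35 ± 0.15) and Clptm1 (0.47 ± 0.21) in hypertension.

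Of the 12 other annotated genes of the interval, *Bcl3*, *Ceacam16* and *Gm16174* had enough counts to be tested, and none was called in *Apoe*-/- mice against controls by edgeR's quasi-likelihood test. *Gm16174*, an antisense gene within *Bcl3*, came closest. It had 39, 25 and 17 counts in controls, 18, 18 and 18 in hypertension, 22, 30 and 21 after MI, and 4, 5 and 2 in *Apoe*-/- mice, which were below each of the 9 others. The log2 difference to controls was -2.84 ± 0.51 (SE; edgeR quasi-likelihood test, adjusted p = 0.0538). *Gm16174* was called against controls without control replicate 4 (adjusted p = 0.0292), and with all libraries against MI (0.0410, and 0.0627 to 0.127 without any 1 of its libraries) but not against hypertension (0.304), by the same edgeR test. Against controls *Gm16174* was called by edgeR's likelihood-ratio test (adjusted p = 0.000233), by DESeq2 (adjusted p = 0.00256) and without a low-count filter (adjusted p = 6.92e-05). In total, 4 of the 13 alternatives in which it was tested against controls called it. By edgeR's quasi-likelihood test it was not called with the replicate block (adjusted p = 0.0949) or with only the groups compared (0.356). With the macrophage share as covariate, the same test gave an adjusted p of 0.99991. The exons of *Gm16174* share no base with those of *Bcl3*, a coactivator of the NF-kB subunits p50 and p52. It lies within *Bcl3* on the opposite strand, and the strand setting of the counts is not given. Whether unspliced *Bcl3* RNA was counted for *Gm16174* was not tested. *Bcl3* stood at 23.9, 23.4 and 15.5 CPM in controls and 16.1, 27.1 and 43.8 CPM in *Apoe*-/- mice (0.47 ± 0.33). *Ceacam16*, known from the inner ear, differed by 1.18 ± 0.48 (SE) at 0.893 ± 0.40 against 0.390 ± 0.189 CPM (SD, n = 3). All 3 lie between *Bcam* and *Ceacam19*.

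Genes related to the members by function or family were taken as lists. None of their tested genes was called by edgeR's quasi-likelihood test in any of the 3 comparisons with controls. Of 21 other apolipoprotein genes, 8 were tested, with a median log2 difference of 0.42 in *Apoe*-/- mice, beside 0.01 for all genes. The most abundant were *Apol11b* (0.53 ± 0.26, SE), *Clu* (0.34 ± 0.37) and *Apol8* (0.50 ± 0.28). Of 14 receptors and binding partners of ApoE, 12 were tested, with a median of 0.20. Among the most abundant, *Sorl1* and *Scarb1*, the latter the HDL receptor, differed by -0.22 ± 0.19 and -0.25 ± 0.19.

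All 19 genes listed for NF-kB signalling were tested, with a median of 0.05. The list mixes genes of the noncanonical pathway, in which RelB acts, with *Nfkbia*, *Nfkb1*, *Rela* and *Rel* of the canonical pathway. Its median is therefore not a value of the noncanonical pathway alone. *Nfkbia* (0.08 ± 0.43), *Nfkb1* (0.30 ± 0.30) and *Traf2* (0.01 ± 0.26) were the most abundant. Of 8 further *Tomm* genes, *Tomm34* and *Tomm40l* among them, 7 were tested, with a median of -0.03. They were taken by name, and the median is not a value of the import complex alone. *Tomm70a*, *Tomm7* and *Tomm22* differed by 0.10 ± 0.15, 0.06 ± 0.23 and -0.20 ± 0.26. All 11 nectins, nectin-like genes and partners were tested. Of these, 10 had a difference above 0, with a median of 0.64. Of all 15999 genes, 8311 had a difference above 0, with a median of 0.01. *Cadm1*, a nectin-like adhesion molecule, stood at 9.37 ± 0.689 CPM in controls and 26.2 ± 14.9 in *Apoe*-/- mice (SD, n = 3; 1.48 ± 0.30; edgeR quasi-likelihood test, adjusted p = 0.114). All 3 *Apoe*-/- libraries were above the 9 others for *Cadm1*, as they were for 1.48% of all genes tested. Against MI *Cadm1* was called (1.69 ± 0.30; edgeR quasi-likelihood test, adjusted p = 0.0405), as were 0.269% of all genes. *Cd226*, a receptor for nectin-2 on lymphocytes and platelets, differed by 1.01 ± 0.41, and *Afdn*, the adaptor that ties nectins to actin, by -0.34 ± 0.18.

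Of 6 further *Ceacam* genes, 4 were tested, with a median of -0.33. *Ceacam1* differed by -0.20 ± 0.21, *Ceacam10* by -0.75 ± 0.32 and *Ceacam18* by -0.47 ± 0.34, and all 3 kept counts in *Apoe*-/- libraries, unlike *Ceacam19*. Of 7 laminin and spectrin genes whose products bind BCAM, 6 were tested, with a median of 0.33, and the most abundant included *Sptb* (0.43 ± 0.16), which is also an erythroid gene, and *Lamc1* (0.12 ± 0.25). *Clptm1l*, the paralogue of *Clptm1*, stood at 112 ± 9.93 CPM in controls and 114.7 ± 11.5 in *Apoe*-/- mice (SD, n = 3; 0.03 ± 0.13).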

How the data were processed

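The authors aligned the single-end reads to GRCm38.p6 with STAR 2.7.3a and deposited raw counts per Ensembl gene (release 98) from its GeneCounts option, without normalization. The strand setting taken is not given in the sources used here. Counts were used as deposited, and genes were placed with GENCODE M21 (Ensembl 96), which holds 55240 of the 55421 genes.

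filterByExpr at its defaults removed genes of low count. Libraries were scaled by TMM, and 1 coefficient per group was fitted to all 12 libraries (edgeR 4.0.16 in R 4.3.3, glmQLFit, 8 residual degrees of freedom). Contrasts were tested two-sided by glmQLFTest, with Benjamini-Hochberg adjustment over 15999 genes. Each SE is the estimate over the root of its F statistic. Ratios of summed counts carry exact conditional 95% intervals. The members and lists were chosen with earlier results of these data known. Named genes are all 10 members, the tested genes between them, the 3 most abundant genes of each list when none was called, and the 5 genes most correlated with *Apoe*, *Apoc1* or *Tomm40* (mean CPM of at least 1), some of which are not reported here. On simulated counts for *Apoe*-/- against controls (15899 genes), 97 of 100 genes changed by log2 2 and 36 of 100 changed by log2 1 were recovered, with 6 false calls. The simulation gave all genes the same dispersion and changed only genes with a mean above 1 CPM. These rates therefore do not cover the low-count members *Apoc4*, *Apoc1* and *Ceacam19*. Alternatives were edgeR's likelihood-ratio test, DESeq2 1.42.0, RLE size factors, no filter, at least 10 counts in every library, a replicate block, the macrophage share as covariate, only the groups compared, and each library left out in turn.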

Additional observations from a re-analysis of the deposited data

How the results depend on the processing

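The 0 counts of *Ceacam19* in the *Apoe*-/- libraries depend on no setting, and *Apoe* was called against controls, hypertension and MI in all 14 alternatives of each comparison. *Ceacam19* was called against controls in 6 of 12 alternatives in which it was tested (edgeR or DESeq2 adjusted p from 1.48e-12 to 0.269), against hypertension in 7 of 13 and against MI in 5 of 12. *Apoc4* was called against controls in 6 of 13 (adjusted p from 1.85e-06 to 0.352), against hypertension in 3 of 13 and against MI in 2 of 13. Neither was tested with at least 10 counts in every library, nor *Ceacam19* with only the 2 groups compared against controls or MI. The low counts of both limit what these fits can show.

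The number of genes called moved with the tool. For *Apoe*-/- mice against controls, hypertension and MI it was 23, 10 and 43, against 81, 70 and 274 by the likelihood-ratio test, 75, 69 and 294 by DESeq2, and 432, 235 and 790 without a filter. Without a filter, 170 genes were called in hypertension and 130 after MI. The likelihood-ratio test, DESeq2 and the fit of only the groups compared each called 1 gene after MI. With the replicate block, 7 genes were called against controls and 22 against MI. With the macrophage share as covariate, 2 and 1 were called, and with only the groups compared 4 and 3. Members called were 3 against controls and 2 each against hypertension and MI. Without a filter, 4 were called against hypertension. With at least 10 counts or only the groups compared, 1 was called in each comparison, and with the replicate block or the covariate, 1 against controls and 1 against MI. Members changed in *Apoe*-/- mice only were then 1 under these 4 settings, in each case *Apoe*. By the likelihood-ratio test and without a filter they were 3 (*Apoe*, *Apoc4* and *Ceacam19*), and the likelihood-ratio test called 3 members in each comparison. More genes of all kinds were called under these settings than in the main fit. The share of all genes that met the rule under them is not given here, so nothing is read from these counts of members. The fitted log2 differences from controls remained large where calls were lost. That of *Apoc4* was 4.83, 5.27 with the covariate and 4.76 with the block. That of *Ceacam19* was -7.71, -8.09 and -7.59, fitted values of a gene at 0 that are no bounds. The cause was not tested.

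Leaving out 1 library at a time, genes called ranged from 2 to 34 against controls, 3 to 36 against hypertension and 8 to 93 against MI, and members called from 1 to 3, 1 to 2 and 1 to 2. Members changed in *Apoe*-/- mice only ranged from 1 to 2, *Ceacam19* keeping that call only without control replicate 2 or *Apoe*-/- replicate 2. In such a fit the reduced group is assumed to vary like the others.

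With the macrophage covariate, log2 differences in *Apoe*-/- mice moved from 1.40 to 3.22 for *Apoc1*, -0.89 to -1.50 for *Bcam*, 0.51 to 0.10 for *Nectin2* and -0.11 to -0.44 for *Clptm1*. The log2 difference of *Apoc1* was 0.81 in hypertension and -0.11 after MI, and that of *Relb* in hypertension was 0.0037. Over left-out libraries, log2 differences in *Apoe*-/- mice ranged from -0.35 to 1.94 for *Apoc1*, -2.24 to 0.054 for *Bcam*, -0.32 to 0.077 for *Clptm1* and -0.42 to 0.082 for *Relb*. In hypertension they ranged from -0.42 to 0.056 for *Apoe*, -0.19 to 0.11 for *Relb* and -0.13 to 0.60 for *Ceacam19*. After MI they ranged from -0.27 to 0.52 for *Apoe*, -1.88 to 0.84 for *Apoc1*, -0.085 to 1.17 for *Bcam* and -0.29 to 0.15 for *Nectin2*. None of these was called. Same-numbered libraries correlated between -0.16 and 0.27 in their deviations from the group means. Control libraries correlated best with their own number in 3 of 9 pairs. With 3 libraries per group, these values cannot decide whether replicate numbers pair the mice or mark shared processing.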
